A study of Homo sapiens with 6 samples.

Results

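The cadherins, the nectins and EPCAM are receptors through which a cell holds on to its neighbours, and 10 of their genes (CDH1, CDH2, CDH4, CDH10, CDH11, NECTIN1 to NECTIN4 and EPCAM) were followed in U2OS cells transfected with a mimic of miR-542-3p. They were taken by symbol from the annotation of the array, with every probe that names a single one of them: 17 of 47323 probes, for 9 of the 10 genes. CDH4 had no probe listed here and was not analysed here. The genes were chosen by their log2 changes in this same comparison, in which CDH10 and NECTIN4 stood among the large rises. Their changes are therefore a description, with no p-value, and a call of higher or lower only says on which side of the threshold a probe lay in the fit over all probes.

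Cadherins are membrane proteins that bind cadherins on the neighbouring cell in the presence of calcium, and their tails hold catenins, which link them to actin. Nectins are immunoglobulin-like receptors that bind each other across cells without calcium and reach actin through afadin. Nectin contacts often form first and draw cadherins to the same site. EPCAM is a membrane glycoprotein of epithelial cells that supports contact between cells and, once cleaved, releases a fragment that can signal with beta-catenin.

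U2OS is an established human osteosarcoma line. Cells were transfected with a miR-542-3p mimic, a synthetic RNA that acts like the mature microRNA, or with a negative control mimic, and RNA was taken 48 h later. Each group had 3 arrays (Illumina bead arrays hybridised with biotin-labelled cRNA), and the comparison asks how raised miR-542-3p alters transcript levels. The labels number the arrays but name no separate cultures, so the spread between arrays may be technical.

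On the 6 arrays the median intensity was 132.2 to 151.4, and 17848 to 18652 probes were detected, meaning a detection p-value under 0.05. Of 12 mesenchymal marker genes 9 were detected on all 6 arrays, VIM, FN1 and COL1A1 among them. Of 14 epithelial marker genes KRT8, KRT18 and MUC1 were detected on all 6 and 8 on none (KRT5, KRT7, ST14, SPINT1, SPINT2, RAB25, CLDN4 and CD24). Of 10 osteoblast lineage markers with a probe 5 were detected on all 6 arrays (RUNX2, ALPL, SPP1, COL1A1 and SPARC), and IBSP, MSX2 and DLX5 on none. Of 9 leukocyte markers CD68 alone was detected on all arrays, and of 8 endothelial markers none was, while CD3E, CD3D, LYZ and NKG7, and CDH5, KDR, TIE1, CLDN5 and ESAM, were detected on no array.

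Of the 9 genes with a probe, 8 passed the filter, which asked for detection on at least 3 of the 6 arrays. With the mimic 5 of them were called higher (CDH2, CDH10, CDH11, NECTIN3 and NECTIN4), 1 was called lower (EPCAM), and NECTIN1 and NECTIN2 were not called. Over all 10734 genes tested, 12.4% were called higher and 13.6% lower (limma, Benjamini-Hochberg adjusted p under 0.05). On the normalised log2 scale the groups did not overlap for 6 of the 8 members tested, and for 45.0% of all genes tested. CDH10 and NECTIN4 passed the filter on their mimic arrays alone, so they had to differ, and nothing is read from the members' counts against those shares. The arrays were bulk RNA, in which a change in the number of cells that make a transcript and a change in RNA per cell cannot be told apart.

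**Figure D1:**
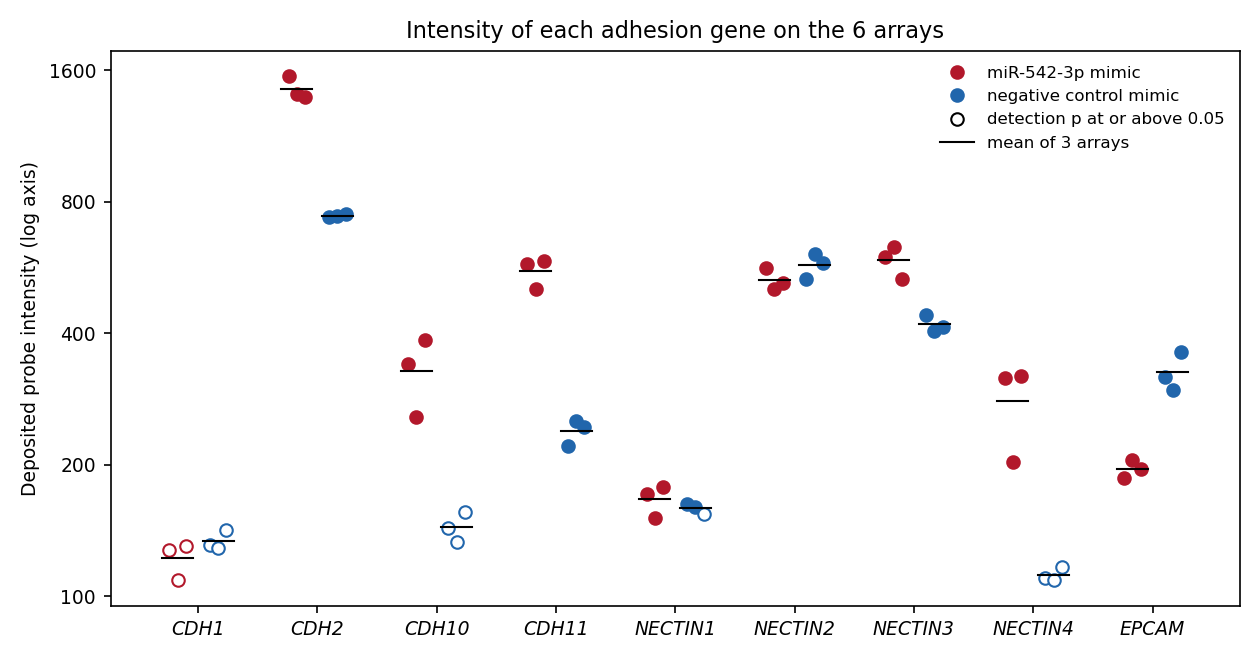
Deposited intensity (log axis) of the brightest probe of each gene on the 3 miR-542-3p mimic arrays (red, left) and the 3 negative control mimic arrays (blue, right), with open points where the detection p-value was 0.05 or more and a bar at the mean. The groups stand apart for CDH2, CDH10, CDH11, NECTIN3, NECTIN4 and EPCAM, and CDH1 was detected on no array. On the normalised log2 scale the groups did not overlap for 45.0% of all genes tested.

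CDH1 encodes E-cadherin, the classical cadherin of epithelia. Its probe (ILMN_1770940) gave intensities of 127.7, 108.8 and 130.6 on the mimic arrays, against 131.0, 128.9 and 141.7 on the control arrays. It was detected on none of the 6, with a lowest detection p of 0.281, so no change of E-cadherin could be measured here.

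CDH2 encodes N-cadherin, the classical cadherin of neural and mesenchymal cells. The probe ILMN_1779228 read 1551.8, 1407.6 and 1389.4 with the mimic, against 737.3, 740.7 and 751.3 with the control. The groups do not overlap, and the 3 control arrays read almost the same. On the normalised log2 scale CDH2 averaged 10.41 ± 0.04 with the mimic and 9.28 ± 0.06 with the control (SD, n = 3 each), a difference of 1.13 ± 0.12 (SE), or 2.19-fold. The difference was 1.01 with no background correction, called as before.

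CDH11, called osteoblast cadherin, is a type II cadherin of mesenchymal and bone-forming cells. The mimic arrays gave 575.1, 504.5 and 584.6, against 220.7, 251.4 and 244.6 on the control arrays (probe ILMN_1672611, detected on all 6). Every mimic array was above every control array by at least 1.49 on the log2 scale. The log2 means were 8.80 ± 0.12 with the mimic and 6.92 ± 0.26 with the control (SD, n = 3 each), a difference of 1.89 ± 0.16 (SE), or 3.71-fold.

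CDH10, another type II cadherin, is best known from the brain. Its probe ILMN_1791270 read 340.9, 257.3 and 386.2 with the mimic and was detected on all 3 of those arrays. On the control arrays it read 143.6, 133.5 and 156.2 and was detected on none. The lowest mimic array was 1.99 above the highest control array on the log2 scale. Because the control level lies under the detection limit, the change is a bound. In the values corrected with an offset of 16, CDH10 stood at least 4.89-fold higher on the mimic arrays. The measured log2 means were 7.74 ± 0.41 with the mimic and 5.14 ± 0.17 with the control (SD, n = 3 each), the control mean lying under the detection limit.

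NECTIN4 is a nectin of placenta and of some epithelial tumours. The probe ILMN_1749044 gave 315.6, 203.0 and 319.6 on the mimic arrays, with detection on all 3. The control arrays gave 110.4, 108.9 and 116.8, with detection p-values of 0.840 to 0.906. In the same corrected values NECTIN4 thus stood at least 3.69-fold higher on the mimic arrays, by the same kind of bound. Mimic replicate 2 read lower than the other mimic arrays, and the log2 SD of the mimic group was 0.57, against 0.02 for the control group. The measured means were 7.34 with the mimic and 4.59 with the control on that scale (n = 3 each), the control mean again lying under the detection limit. Over all genes tested, 71 (0.661%) were detected on all 3 mimic arrays and no control array, as CDH10 and NECTIN4 were.

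NECTIN3 binds nectin-1 and nectin-2 on the neighbouring cell, and both of its probes were detected on all 6 arrays. The brighter, ILMN_2188521, read 598.6, 631.2 and 532.9 with the mimic, against 441.3, 404.4 and 414.0 with the control. The other, ILMN_1727633, read 627.3, 579.7 and 574.2 with the mimic, against 330.9, 345.6 and 351.8 with the control. Neither probe's groups overlap. The log2 differences were 0.68 ± 0.13 and 1.13 ± 0.12 (SE), so the probes share a direction and differ in size, with folds of 1.61 and 2.19. NECTIN3 was thus higher by both probes, while the only probe of NECTIN4 passed the filter on its mimic arrays alone.

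The promoters of the genes that were higher together are given where the RefSeq promoter table used here lists them (GRCh38.p14), as a view of the sequence at their starts. Each window runs from 250 bases before the start of the gene to 50 after it, 5′ to 3′ on the gene's strand. Capitals mark 2 motifs, read on both strands: CAGGTG, an E-box form to which the repressors of the SNAI and ZEB families bind, and the GC box GGGCGG, a binding site of SP1. The motifs do not overlap each other in these windows.
The window of NECTIN4 is chr1:161089509-161089808 on the minus strand.
NECTIN4: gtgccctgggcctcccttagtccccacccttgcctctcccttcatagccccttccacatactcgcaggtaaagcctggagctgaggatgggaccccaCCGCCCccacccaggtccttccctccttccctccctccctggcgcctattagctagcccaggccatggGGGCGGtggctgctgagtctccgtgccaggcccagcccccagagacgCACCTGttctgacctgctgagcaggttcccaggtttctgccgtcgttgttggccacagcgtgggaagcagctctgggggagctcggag
The window of CDH10 is chr5:24644929-24645228 on the minus strand.
CDH10: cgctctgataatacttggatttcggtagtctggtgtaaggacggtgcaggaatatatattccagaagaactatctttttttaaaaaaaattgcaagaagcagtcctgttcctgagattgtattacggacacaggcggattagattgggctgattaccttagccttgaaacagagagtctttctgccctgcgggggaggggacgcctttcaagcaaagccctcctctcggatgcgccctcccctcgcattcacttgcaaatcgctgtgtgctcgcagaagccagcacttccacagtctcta
The window of NECTIN3 is chr3:111071566-111071865 on the plus strand.
NECTIN3: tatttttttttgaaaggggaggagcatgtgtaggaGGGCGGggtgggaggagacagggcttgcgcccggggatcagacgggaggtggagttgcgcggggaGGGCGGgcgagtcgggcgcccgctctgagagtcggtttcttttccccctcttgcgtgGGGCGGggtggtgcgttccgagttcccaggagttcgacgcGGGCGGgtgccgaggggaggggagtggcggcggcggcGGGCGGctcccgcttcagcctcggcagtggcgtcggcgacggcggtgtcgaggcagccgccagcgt
The window of CDH2 at its upstream start is chr18:28177081-28177380 on the minus strand.
CDH2: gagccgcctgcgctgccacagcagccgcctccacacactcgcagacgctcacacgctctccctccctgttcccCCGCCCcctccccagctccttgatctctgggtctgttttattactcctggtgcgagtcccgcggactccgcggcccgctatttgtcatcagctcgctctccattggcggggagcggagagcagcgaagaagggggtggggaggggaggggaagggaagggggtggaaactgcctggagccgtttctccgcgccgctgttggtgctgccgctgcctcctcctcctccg
The E-box form stood in 1 of these 4 windows, 38 bases before the start of NECTIN4, and in 20.6% of 35116 promoters in the table. The GC box stood 5 times in NECTIN3, 2 times in NECTIN4 and 1 time in CDH2, and in 45.0% of all promoters. CDH10 held neither, with a G+C share of 48.3%, against 65.7% to 70.3% in the other windows printed. The window at the downstream start of CDH2, not printed, also held neither, with 40.7%. NECTIN2, which was not called, held 3 GC boxes in its own window. These matches describe the letters only, and no binding was measured.

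NECTIN2, the nectin also called CD112 and a ligand of immune receptors, had 3 probes, each detected on all 6 arrays. The brightest, ILMN_1718303, read 565.1, 505.7 and 520.4 with the mimic, against 532.0, 608.8 and 578.6 with the control, and the groups overlap. Its log2 difference was -0.08 ± 0.14 (SE). ILMN_2337336 read 279.2, 262.6 and 276.8 with the mimic, against 314.9, 329.3 and 344.5 with the control. Here the groups do not overlap, but the difference of -0.36 ± 0.12 was not called, and it ranged from -0.43 to -0.31 when each array was left out. ILMN_2255382 differed by -0.24 ± 0.23 with overlapping groups. All 3 probes gave values below 0, none of them called. Without control replicate 2 the brightest probe stood at 0.02, and without 1 mimic array ILMN_2255382 stood at 0.02 as well.

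NECTIN1, the partner that NECTIN3 and NECTIN4 bind across cells, was near the detection limit. Of its 4 probes ILMN_1695549 passed the filter, with 171.7, 150.9 and 177.6 on the mimic arrays, against 163.1, 160.1 and 154.6 on the control arrays. It was detected on 3 mimic and 2 control arrays, and the log2 difference of 0.25 ± 0.16 (SE) was not called. ILMN_1744815 was detected on 2 mimic arrays and no control array, short of the filter by 1 array, and was not tested. Its intensities overlapped between the groups (143.7 to 177.6 with the mimic, 136.5 to 152.9 with the control). On the normalised log2 scale its lowest mimic array lay 0.22 above its highest control array. The remaining pair of NECTIN1 probes was detected on no array.

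EPCAM was the gene that fell. Its brightest probe, ILMN_2160210, read 186.3, 205.4 and 196.0 with the mimic, against 317.7, 297.5 and 362.3 with the control, and was detected on all 6 arrays. No mimic array reached the lowest control array, with a gap of 0.89 on the log2 scale. The log2 means were 6.37 ± 0.36 with the mimic and 7.69 ± 0.14 with the control (SD, n = 3 each), a difference of -1.32 ± 0.19 (SE). Another probe, ILMN_3249032, read 176.9, 196.1 and 171.8 with the mimic, against 240.5, 216.9 and 241.6 with the control, and those groups do not overlap. Its difference of -0.78 ± 0.21 was called, but the call ended when any array other than mimic replicate 2 was left out. The last, ILMN_2160209, was detected on 1 mimic array alone (164.7, replicate 3) and was not tested. The brightest probes of the 14 epithelial markers, 8 of them detected on no array, summed to 2926.6 to 3063.6 with the mimic, against 3115.7 to 3811.1 with the control, and their part in the fall of EPCAM was not tested. Of 5 epithelial markers tested MUC1 alone was called, lower by 1.16 on the log2 scale (limma adjusted p = 0.00638), while ELF3 (-0.48), KRT14 (-0.29), KRT8 (-0.18) and KRT18 (-0.11) were not.

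**Figure D2:**
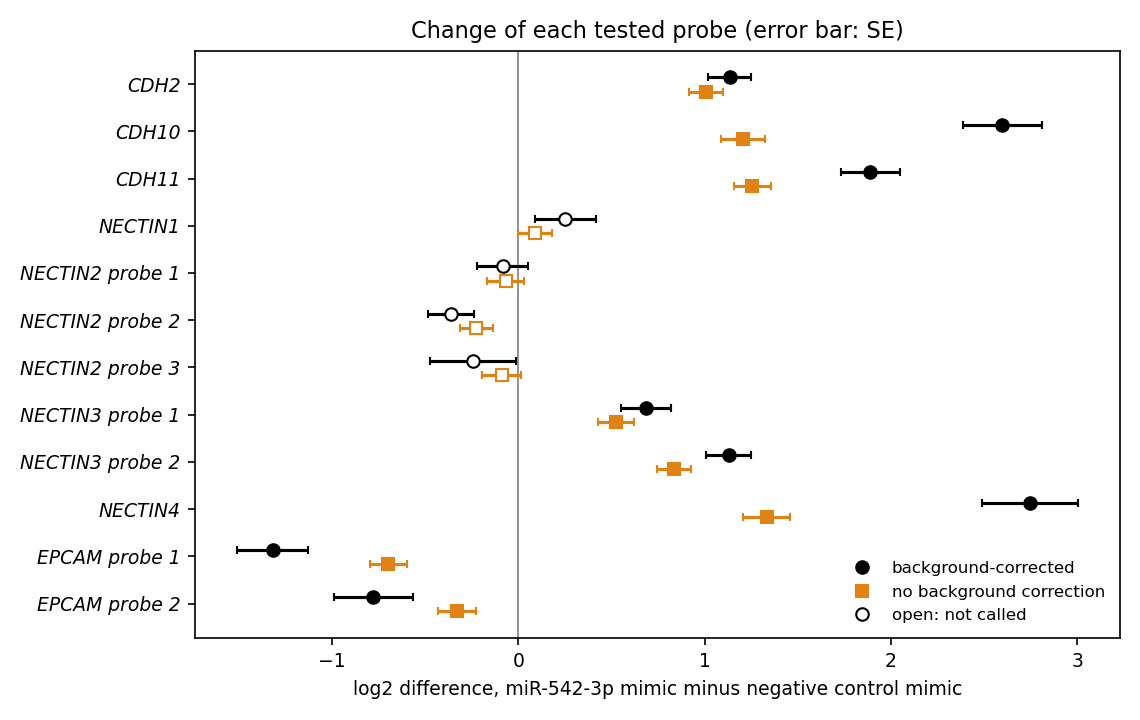
Log2 difference, miR-542-3p mimic minus negative control mimic, with SE, of the 12 probes that passed the filter, after background correction (black circles) and with none (orange squares), open where not called. Every call is the same on both scales, while all 12 probes lie nearer 0 without the correction. CDH10 and NECTIN4 are set against control arrays with no detection.

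The 17 probes fell into classes of detection. On all 6 arrays 9 probes were detected, those of CDH2, CDH11, NECTIN2 and NECTIN3 and the brighter pair of EPCAM. On no array 3 were detected, that of CDH1 and 2 of NECTIN1. Of the 12 probes that passed the filter 6 were called higher and 2 lower, against 11.3% and 12.3% of all 18113 probes tested, or 23.6% in either direction. Probes of 1 gene share their target and are not replicates, and nothing is read from these counts.

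Mimic replicate 2 lay closest to the control arrays for CDH10 (log2 7.31), CDH11 (8.68), NECTIN4 (6.68) and the brightest EPCAM probe (6.72). For NECTIN3 it was the mimic array farthest from them (9.08, brightest probe). That array had the lowest median intensity of the 6, 132.2. Without it the measured log2 differences were 2.80 for CDH10 and 3.07 for NECTIN4, both against undetected controls, and -1.49 for EPCAM. The calls of the 5 higher genes and of EPCAM held whichever array was left out, with the probes held as in the full fit. Without a mimic array CDH10 and NECTIN4 would have had too few detections to pass the filter, so nothing is read from their held calls.

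The size of several changes rested on how the background was treated. Left uncorrected, CDH10 differed by 1.21 on the log2 scale, NECTIN4 by 1.33, CDH11 by 1.25, EPCAM by -0.70 and NECTIN3 by 0.53, each still called. With a larger offset of 50 in the correction the differences were 1.84 for CDH10, 1.76 for NECTIN4 and -1.04 for EPCAM. On the uncorrected scale CDH11 was higher by 2.39-fold, CDH10 by 2.31-fold and NECTIN4 by 2.52-fold. The bounds given for CDH10 and NECTIN4 apply to values corrected with the main offset of 16 alone. The differences with an offset of 50 or with no correction lie below them.

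**Figure D3:**
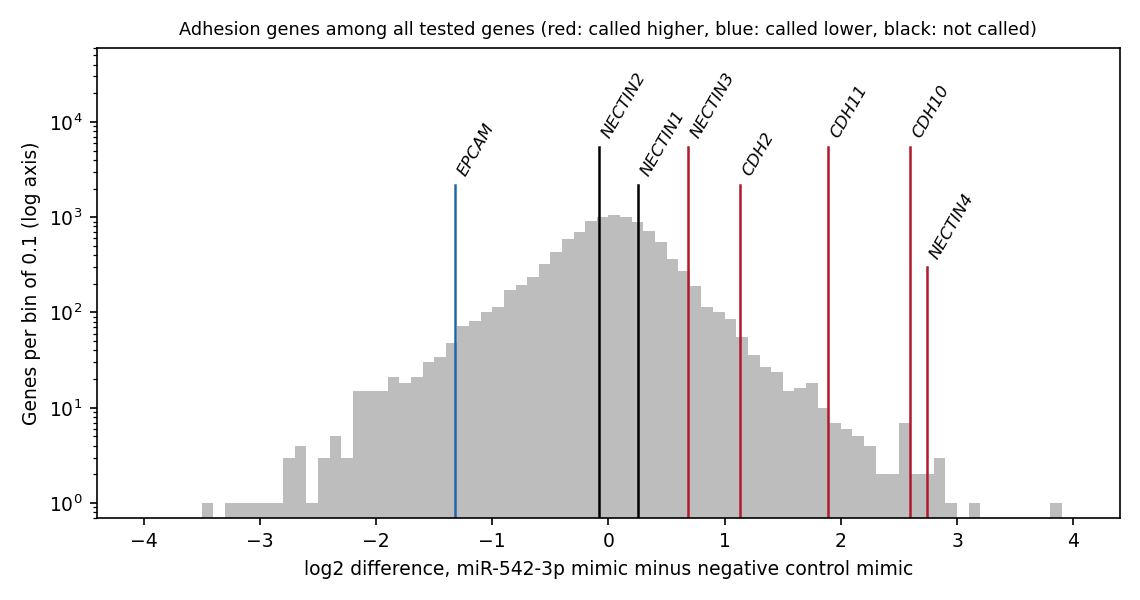
Number of genes per bin of 0.1 (log axis) by log2 difference, miR-542-3p mimic minus negative control mimic, over the 10734 genes tested, with lines at the 8 adhesion genes. NECTIN4 and CDH10 (measured against undetected controls) and CDH11 lie in the sparse upper tail and NECTIN1 and NECTIN2 in the middle.

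For NECTIN4 and CDH10, the 5 genes with the most similar profile were found by the root mean square difference of log2 values over the 6 arrays, each gene centred on its own mean. TAB3 (0.09), C1QTNF12 (0.10), SUGCT (0.15), FEZ1 (0.15) and CYSRT1 (0.16) lay closest to NECTIN4. By these probes TAB3, C1QTNF12 and CYSRT1 were detected on all 3 mimic arrays and no control array, as NECTIN4 was. Dimmer probes of TAB3 (0.83) and FEZ1 (1.88, 0.81 and 0.26) gave smaller differences than the probes matched. TNFRSF14 (0.04), C1QTNF12 (0.12), CYFIP2 (0.13), TP53INP1 (0.14) and SESN1 (0.16) lay closest to CDH10. All these genes share the 6 arrays and the contrast, so closeness here mostly restates a rise of like size.

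Other genes of cell contact were counted in 8 lists, with 73 genes tested. Of these 17 were called higher and 14 lower, against 12.4% and 13.6% of all genes, or 26.0% in either direction. The lists were chosen with earlier results of these data known, so nothing is read from their counts against those shares. Without control replicate 1 the higher genes numbered 10, without control replicate 2 they numbered 12 and without control replicate 3 they numbered 8. The numbers were 8, 14 and 9 without mimic replicate 1, 2 and 3 in turn.

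Of 13 tested catenins and cytoplasmic partners 1 was called higher and 4 lower, with a median of -0.38, against 0.02 over all genes. CTNNA1, alpha-catenin, which ties the cadherin complex to actin, fell by 0.63 ± 0.12 (SE; limma adjusted p = 0.00596), with another probe at -0.65. The others lower were IQGAP1 (-0.76), CTNNBIP1 (-0.82) and VCL, the actin linker vinculin (-0.55), and PLEKHA7 was higher (0.64). Without control replicate 3 the lower genes numbered 2, VCL was also lost without mimic replicate 1 or control replicate 1, and PLEKHA7 without mimic replicate 2 or 3 and without control replicate 2 or 3. CTNNB1 (0.10 ± 0.14) and CTNND1 (-0.10 ± 0.17), catenins that bind cadherin tails, were not called. Neither were JUP (-0.58 ± 0.26), PKP4 (-0.38 ± 0.14) and ARVCF (0.36 ± 0.20) of the same list.

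Of 4 nectin-like genes tested, CADM1, a nectin-like adhesion molecule, rose by 1.14 ± 0.16 (SE; limma adjusted p = 0.0017), and CADM3 by 0.88 ± 0.27, a call lost without mimic replicate 1 or 3 and without control replicate 1 or 3. Of 5 other cadherins tested, CDH15, the muscle cadherin, was higher (1.07 ± 0.24) and CDH18 lower (-0.51 ± 0.14). CDH12 (-0.49), CDH24 (-0.41) and CDH20 (-0.28) were not called, and the median of these cadherins was -0.41. CDH12 was detected on the 3 control arrays and no mimic array, and so passed the filter through the control arrays alone. CDH15 lost its call without mimic replicate 1 or 3 or control replicate 3, and CDH18 without any array other than mimic replicate 2. Among the alternatives the CDH15 difference was as small as 0.45. Another 12 cadherins had a probe but did not pass the filter, CDH3, CDH5 and CDH6 among them.

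Of 6 tested factors of epithelial-mesenchymal transition 2 were higher and 1 lower. SNAI2, the repressor Slug, which acts on CDH1 in epithelial cells, rose by 1.13 ± 0.24 (SE; limma adjusted p = 0.0114), with another probe at 1.16. TCF4 rose by 0.52, a call held only without mimic replicate 2 among the arrays left out in turn. OVOL2, a factor that favours the epithelial state, was detected on no mimic array and all control arrays and was at least 1.49-fold lower. This bound holds for the main correction alone, and among the alternatives the log2 difference was as small as -0.45. OVOL2 passed the filter through the control arrays alone, so nothing further is read from its call. SNAI1, ZEB1, ZEB2 and TWIST1 were among 14 that did not pass the filter.

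Of 15 genes of cleavage and turnover 5 were higher and 2 lower. ADAM10, the protease that sheds E- and N-cadherin, rose by 0.58 ± 0.14 (SE), a call lost without mimic replicate 1 or control replicate 1. ADAM17, which cleaves EPCAM, rose by 0.63 ± 0.13 by its brightest probe, with other probes at 0.13 and 0.17, and was not called with the mean of its probes (0.31, limma adjusted p = 0.166). CBLL1, a ubiquitin ligase for E-cadherin, rose by 0.69 ± 0.14, with another probe at 0.19 that was not called. NCSTN, a subunit of gamma-secretase, fell by 0.75 ± 0.12 (limma adjusted p = 0.00316). MMP7 (0.89), MMP9 (1.03) and MMP3 (-1.01) made up the rest. MMP7 and MMP9 each lost the call without 5 of the 6 arrays in turn and MMP3 without 4, and all of them with no detection filter, while another probe of MMP7 stood at 1.28 (limma adjusted p = 0.00399). The higher genes numbered 2 without mimic replicate 1 or control replicate 1, and 3 without mimic replicate 3 or control replicate 3. They numbered 4 without mimic replicate 2 or control replicate 2. The lower genes numbered 1 without mimic replicate 1 or 3 or control replicate 1 or 2.

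Of 17 tight junction and polarity genes 5 were higher, among them SCRIB (0.97 ± 0.13, SE) and CLDN1 (1.06 ± 0.17). Among the alternatives the CLDN1 difference was as small as 0.45, still called. Another 4 were lower, among them CGN, the junction protein cingulin (-1.13 ± 0.14), and LLGL1 (-0.90 ± 0.12). PATJ, also lower, was detected on the 3 control arrays and no mimic array. It passed the filter through the control arrays alone, so nothing further is read from its call. The higher genes numbered 3 or 4 whichever array was left out, and 3 without mimic replicate 1 or control replicate 3. PARD3 (0.85) lost its call in 3 of these cases and PRKCZ (0.44) in 5. Other probes of PRKCZ stood at 0.58 and -0.15, neither called. Of 8 beta-catenin target genes LEF1 (-0.82 ± 0.12) and BAMBI (-0.997 ± 0.131) fell and ZNRF3 was called higher (0.48), while AXIN2 stood at -0.04 ± 0.17. The ZNRF3 call ended in 12 of 20 alternatives, among them no background correction, array medians set equal, cyclic loess, the deposited log2 values and leaving out any array other than mimic replicate 2. None of 5 desmosome genes was called by limma, with 2 at an unadjusted p under 0.05.

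Of the tested markers of cell types, 3 of 10 mesenchymal genes were higher: S100A4 (0.97, with another probe at 0.71 that was not called), PDGFRB and COL5A1. Another 3 were lower (TNC, SPARC and THY1), and the lower count was 0 without any array other than mimic replicate 2. COL5A1 (0.46) lost its call in the same 5 cases and with array medians set equal, cyclic loess or no detection filter. Of 6 osteoblast lineage genes RUNX2 was higher (0.97) and SPP1 (-1.87) and SPARC lower, with SPARC losing its call likewise. VWF, 1 of 2 endothelial genes tested, was detected on the 3 control arrays and no mimic array, having passed the filter through the control arrays alone. It was at least 1.54-fold lower with the main correction, and among the alternatives the log2 difference was as small as -0.60. Of the 2 leukocyte genes tested, limma called none, and none had an unadjusted p under 0.05.

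**Figure D4:**
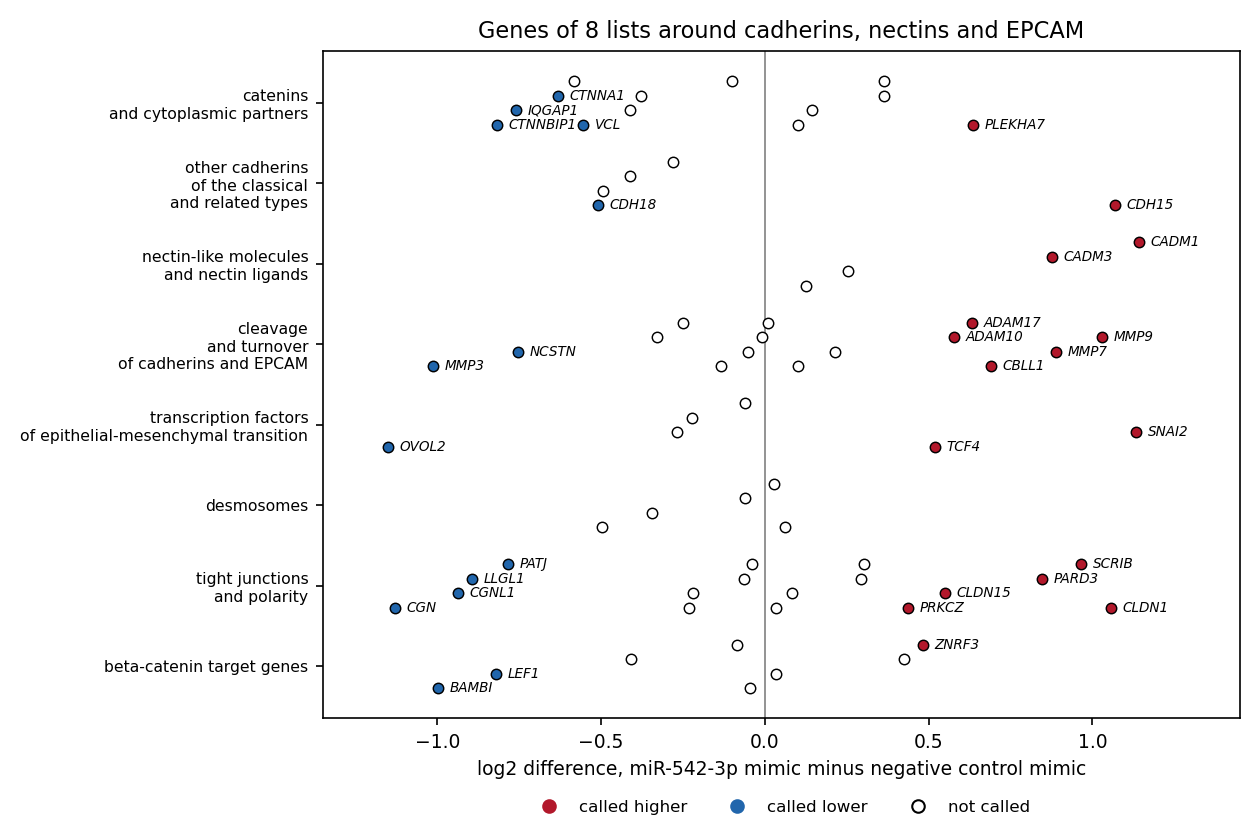
Log2 difference, miR-542-3p mimic minus negative control mimic, of the 73 tested genes of 8 lists, 1 point a gene, filled and named where called. Called genes lie on both sides of 0 in 6 of the 8 lists.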

How the data were processed

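RNA of 6 arrays was analysed, 3 of cells with the miR-542-3p mimic and 3 with the negative control mimic. Per the file headers, the authors deposited a non-normalized intensity for each of 47323 probes and a detection p-value beside it; the sources used here name no scanner software, background subtraction or slide. The authors also deposited log2 values of the same arrays, used as an alternative. Probes took their gene from GEO's platform annotation, which gave 30113 probes 1 gene, 8 several and 17202 none, and entrez identifiers were checked against RefSeq (GRCh38.p14). In R 4.3.3, limma 3.58.1 corrected the background (nec, offset 16, negative controls inferred from detection p-values), and values were quantile-normalized and logged to base 2. The 18113 probes detected (p under 0.05) on 3 or more arrays were fitted with lmFit and eBayes, with no covariate, and p-values adjusted over all of them by Benjamini-Hochberg. A gene stood by its probe of highest mean. Genes were called at an adjusted p under 0.05, and changes are mimic minus control on the log2 scale, with the SE of limma. For a gene detected on no array of a group, the fold is a bound, the bright group's mean over a floor averaged across the dim group's arrays, the floor of an array being its lowest detected signal or the probe's own signal if that is higher. The fit was also run on simulated data with independent noise as a check of the code, and nothing about these arrays is read from it.

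The members and lists were chosen with earlier results of these data known. All members are named. From each list the text names up to 4 called genes by smallest adjusted p. Other list members are named to make up a count, to give a limit, or as examples of genes not called or not detected. Those named for a limit or as examples were chosen after their values were seen. The number of arrays limits the precision.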

Additional observations from a re-analysis of the deposited data

How the results depend on the processing

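The member genes kept their direction and their side of the threshold under the alternatives run that could give them a value, in 156 comparisons of 8 genes, except that NECTIN2, which was not called in any, changed sign without control replicate 2 (0.02). CDH10 and NECTIN4 passed the filter through the mimic arrays alone, so nothing is read from their held calls. The exception among counts was the filter asking for detection on all 6 arrays, which left out CDH10, NECTIN4 and NECTIN1 and so gave 3 members called higher. The alternatives were no background correction or an offset of 50, array medians set equal, cyclic loess, other detection filters, 1 row per gene, the mean of probes, eBayes with trend and robust, array weights, the deposited log2 values, an adjusted p under 0.01, the replicate number as a block, and each array left out, with the probes held as in the full fit. At an adjusted p under 0.01, 1415 genes were called in place of 2793, and 4 list genes were higher and 9 lower in place of 17 and 14. With no detection filter 10 list genes were higher. Leaving out 1 array gave 8 to 14 list genes higher, and the cause was not tested. The deviations of arrays of the same replicate number correlated weakly (r of 0.02, 0.07 and 0.10 for the 3 pairs), and 4 of 6 arrays correlated best with their own number. With 3 arrays in each group these values cannot decide whether the numbers mark pairs. The main fit did not take them as pairs. With the replicate number as a block, 5 members were higher and 1 lower, and 2637 genes were called. The detection limit leaves CDH1 and most NECTIN1 probes without a measured change, and the control levels of CDH10 and NECTIN4 as bounds.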
